A study of Mus musculus with 4 samples.

Results

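The mRNA levels of 10 genes that control passage through the G1 phase of the cell cycle were compared between activated RbLoTem and RbHiTn cells. The genes were the D-type cyclins CCND1, CCND2 and CCND3, the E-type cyclins CCNE1 and CCNE2, the cyclin-dependent kinases CDK2, CDK4 and CDK6, and the kinase inhibitors CDKN1A and CDKN1B. They were chosen by symbol, and each matched 1 of the 38588 gene models in every table. RbLoTem cells were splenic CD4+ FoxP3- T cells of C57BL/6-Foxp3tm1Flv/J mice, a FoxP3 reporter strain, with a CD45Rb low, CD44 high, CD62L low effector memory phenotype. RbHiTn cells were CD4+ FoxP3- T cells from spleens of the same strain with a CD45Rb high, CD44 low, CD62L high naive phenotype. Both subsets were stimulated for 72 h on plate-bound antibody to CD3ε, part of the T cell receptor complex, so both were activated and no resting cells were sequenced. There were 2 libraries per subset, replicate 2 being the library whose label ends in "o", a suffix whose meaning is not given. Whether they came from separate animals or cultures is not stated, so the p-values below reflect the spread among these 4 libraries alone, and this spread may be purely technical.

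A resting T cell enters the cell cycle when D-type cyclins accumulate after receptor signals and activate CDK4 and CDK6. These kinases phosphorylate the retinoblastoma family of pocket proteins, which releases E2F transcription factors and allows E-type cyclins to accumulate, activate CDK2 and start DNA replication. The CIP/KIP proteins p21 (encoded by CDKN1A) and p27 (encoded by CDKN1B) bind and restrain cyclin-CDK complexes, and p27 is abundant in quiescent T cells and is degraded after activation. Protein, phosphorylation and cell division were not measured in these libraries.

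The libraries held 4673858 and 6431991 reads in genes in RbLoTem cells and 6514106 and 4192083 reads in RbHiTn cells. The models bear the symbols and positions of human genes whereas the cells were murine, so 0 reads on a model do not tell whether the mouse gene was transcribed. Of 14 T cell markers, 9 could be tested and 4 were lower in RbLoTem cells, while CD3D, CD2 and CD28 were at 0 in all 4 libraries and CD4 had 1 to 4 reads. All 7 tested B cell markers were lower in RbLoTem cells, with a summed RPKM (exon reads divided by exon length in kb and by the library's reads in genes in units of 1000000) of 6.50 and 6.87 in RbLoTem cells and 23.9 and 26.6 in RbHiTn cells, and CD79A and MS4A1 were at 0 in RbLoTem cells. CD37 alone held 6.22 and 6.54 RPKM of the B cell sum in RbLoTem cells and 14.5 and 16.4 RPKM in RbHiTn cells. All 6 tested dendritic and myeloid markers (IRF8, CD74, HLA-DQA1, HLA-DRB1, SPI1 and CTSS) were lower in RbLoTem cells too. Their sums were 2.49 and 2.83 RPKM in RbLoTem cells and 24.5 and 18.4 RPKM in RbHiTn cells. IRF8 alone held 1.91 and 1.81 RPKM of these sums in RbLoTem cells and 8.09 and 7.30 RPKM in RbHiTn cells. The other 6 with a model (ITGAX, XCR1, CLEC9A, CSF1R, LYZ and CD14) were at 0 in all 4 libraries. The single tested marker of CD8 T and NK cells, EOMES, was lower, and 8 of the 9 with a model, CD8A and CD8B among them, were at 0 in all 4 libraries. The part of these other cell types in the results below was not tested.

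In RbLoTem cells, 3 of the 10 genes were higher than in RbHiTn cells (CDK6, CCND2 and CCNE2) and 1 was lower (CDK2). Another 4 (CCND3, CDK4, CCNE1 and CDKN1B) were tested and did not pass, and CCND1 and CDKN1A had no reads. The test was edgeR's quasi-likelihood test on exon reads, with a Benjamini-Hochberg adjusted p under 0.05 over all 6539 models that passed its filter on low counts. Over all those models 24.3% were higher in RbLoTem cells, 23.6% were lower and 48.0% changed in either direction, so the 4 changed genes of 8 tested (50%) were near the background share. The median log2 fold change was 0.03 over the 8 tested genes and -0.01 over all tested models. In whole-population RNA, fewer cells that express a gene and less RNA per cell cannot be told apart.

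**Figure D1:**
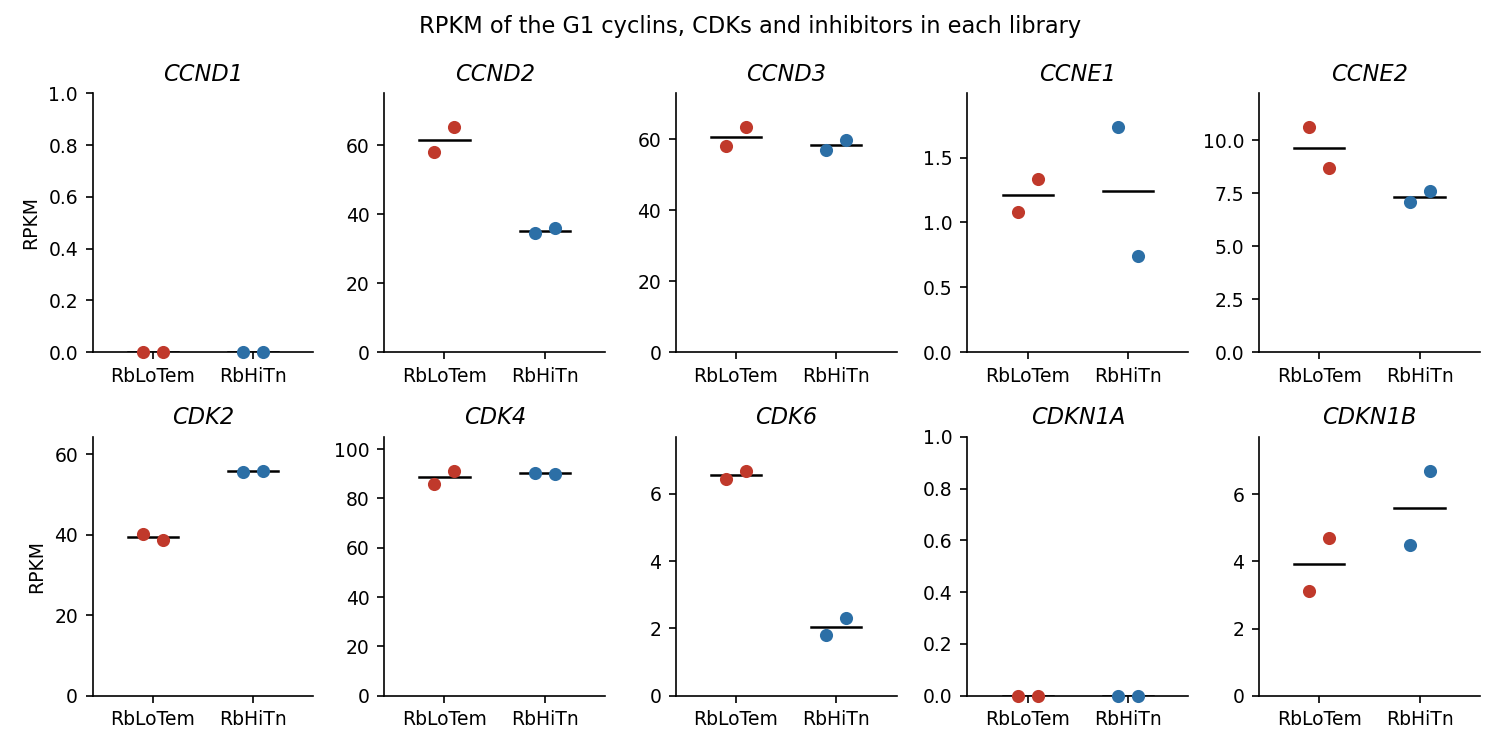
RPKM of each of the 10 genes, with 1 point per library, RbLoTem in red and RbHiTn in blue, replicate 1 left of replicate 2, and a bar at the mean of the 2 libraries. CDK6 and CCND2 lie higher and CDK2 lower in RbLoTem cells without overlap, CDK4 and CCND3 sit at like heights in both subsets, and CCND1 and CDKN1A lie at 0.

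The D-type cyclins link receptor and growth factor signals to CDK4 and CDK6. CCND2, which encodes cyclin D2, the D-type cyclin well known from lymphocytes, had 57.97 and 65.17 RPKM in RbLoTem cells, against 34.38 and 35.93 RPKM in RbHiTn cells. Both RbLoTem libraries were higher than both RbHiTn libraries, and the groups did not overlap. The log2 fold change was 0.82 (SE 0.06, adjusted p = 8.7e-13 by edgeR), a 1.77-fold higher level in RbLoTem cells. The counts behind it were 1939 and 3000 reads in RbLoTem cells and 1603 and 1078 reads in RbHiTn cells. Between 90.4% and 92.8% of them matched a single place, and with those reads alone the log2 fold change was 0.83. The human model of CCND2 spans positions 4382938 to 4414516 of human chromosome 12, in a build that the files do not name, and mouse Ccnd2 lies on chromosome 6 at 127125162 to 127152193 on the minus strand (GRCm38, GENCODE vM21).

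CCND3 encodes cyclin D3, the D-type cyclin needed for expansion of immature T cells in the mouse thymus. It had 58.02 and 63.43 RPKM in RbLoTem cells, against 56.90 and 59.83 RPKM in RbHiTn cells. The groups overlapped. Its log2 fold change of 0.07 (SE 0.06, adjusted p = 0.36 by edgeR) did not pass, although 1329 to 2162 reads per library lay behind it. CCND1, the D-type cyclin best known from epithelial cells and tumours, had 0 reads in all 4 libraries, where 3 reads would have been 0.0953 to 0.148 RPKM. No fold can be given for CCND1, and mouse Ccnd1 RNA that does not match the human model would not have been counted.

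The balance of the D-type cyclins differed between the subsets. The ratio of CCND2 to CCND3 RPKM was 0.999 and 1.03 in RbLoTem cells, against 0.604 and 0.601 in RbHiTn cells. In RPKM, CCND2 and CCND3 were thus at like levels in RbLoTem cells, while in RbHiTn cells CCND2 was the lower of the pair in both libraries. The exon lengths were those of the human models, so the level of 1 cyclin against the other is less certain than the difference between subsets. The summed level of CCND2 and CCND3 was 116.0 and 128.6 RPKM in RbLoTem cells, against 91.3 and 95.8 RPKM in RbHiTn cells. With 2 libraries against 2, the smallest two-sided p that an exact permutation test can give is 0.333, so ratios and sums are given without a test.

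CDK6, a catalytic partner of the D-type cyclins and a kinase prominent in blood cells, had the largest change of the 10 genes. It had 6.43 and 6.68 RPKM in RbLoTem cells, against 1.80 and 2.30 RPKM in RbHiTn cells. The RbLoTem libraries lay close together and both far above the RbHiTn libraries. The log2 fold change was 1.72 (SE 0.12, adjusted p = 7.9e-14 by edgeR), a 3.29-fold higher level in RbLoTem cells, and 6.73% of all tested models had a larger absolute change. The reads numbered 365 and 522 in RbLoTem cells and 142 and 117 in RbHiTn cells, and all of them matched a single place. The human model lies on human chromosome 7 at 92234235 to 92464611, and mouse Cdk6 on chromosome 5 at 3341485 to 3531008 on the plus strand (GRCm38).

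CDK4, the other partner of the D-type cyclins, had 85.97 and 91.19 RPKM in RbLoTem cells, against 90.19 and 90.05 RPKM in RbHiTn cells. The RbHiTn values lay between the RbLoTem values. With a log2 fold change of -0.02 (SE 0.06, adjusted p = 0.87 by edgeR), CDK4 did not pass, and 97.0% of all tested models had a larger absolute change. CDK4 had the highest RPKM of the 8 genes with reads in both subsets, and 7.57% of all tested models had a higher mean RPKM.

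The higher CDK6 level stood beside a much higher RPKM of CDK4 in both subsets. The ratio of CDK6 to CDK4 RPKM was 0.0748 and 0.0733 in RbLoTem cells, against 0.0199 and 0.0255 in RbHiTn cells. In RPKM, CDK6 thus made up 6.96% and 6.83% of the summed CDK4 and CDK6 level in RbLoTem cells, against 1.95% and 2.49% in RbHiTn cells. The summed level itself was 92.40 and 97.9 RPKM in RbLoTem cells, against 91.98 and 92.35 RPKM in RbHiTn cells. In level per length, CDK4 had the higher RNA level of the pair in all 4 libraries. The exon lengths were those of the human models, 12143 bases for CDK6 and 3086 bases for CDK4. The ratio and the share are therefore less certain than their difference between subsets. Reads across exon junctions, not divided by length, numbered 277 and 382 for CDK6 and 989 and 1474 for CDK4 in RbLoTem cells. In RbHiTn cells such reads numbered 109 and 91 for CDK6 and 1416 and 921 for CDK4.

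**Figure D2:**
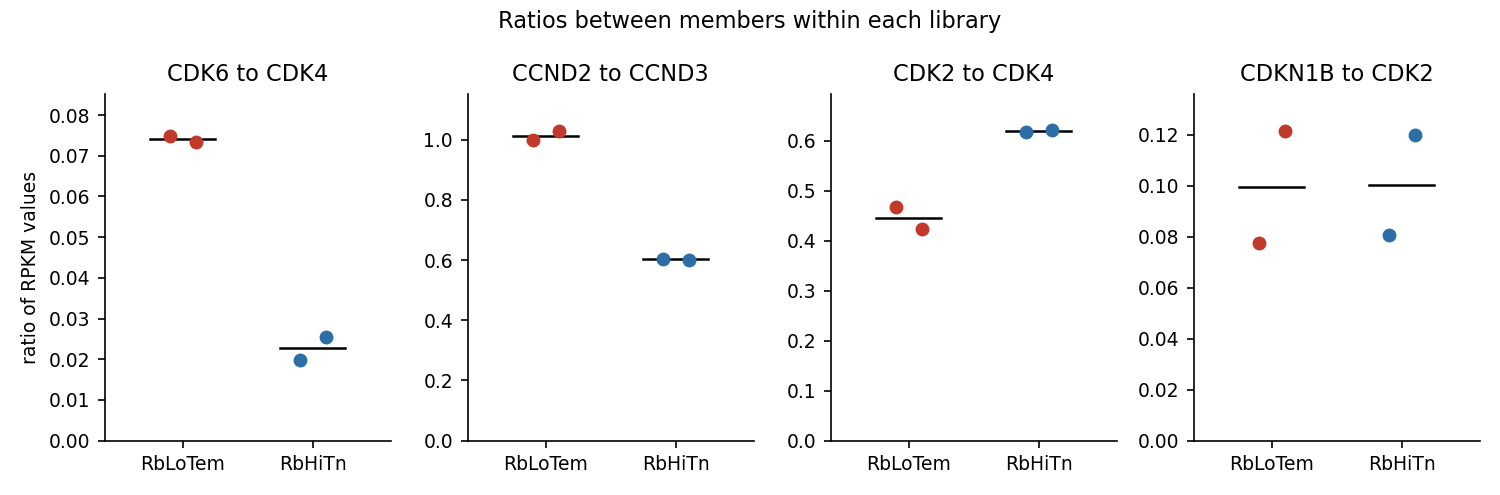
Ratios of RPKM values between pairs of the 10 genes within each library, with RbLoTem in red, RbHiTn in blue, a bar at the mean and each axis starting at 0. The CDK6 to CDK4 and CCND2 to CCND3 ratios are higher and the CDK2 to CDK4 ratio is lower in RbLoTem cells, while the CDKN1B to CDK2 ratio overlaps between the subsets.

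CDK2 is the kinase that works with the E-type cyclins at the start of S phase and with A-type cyclins after it. It was the single gene of the 10 that passed the test as lower in RbLoTem cells. It had 40.17 and 38.66 RPKM in RbLoTem cells, against 55.62 and 55.95 RPKM in RbHiTn cells. The libraries of each subset lay close together and the groups did not overlap. The log2 fold change was -0.49 (SE 0.07, adjusted p = 2.7e-07 by edgeR), so that the level in RbLoTem cells was 1.41-fold lower, and 33.2% of all tested models had a larger absolute change. The reads were 654 and 866 in RbLoTem cells and 1262 and 817 in RbHiTn cells, of which 91.3% to 95.1% matched a single place. The ratio of CDK2 to CDK4 RPKM was 0.467 and 0.424 in RbLoTem cells, against 0.617 and 0.621 in RbHiTn cells. CDK2 thus changed in the opposite direction to CDK6. The human model of CDK2 lies on human chromosome 12 at 56360565 to 56366169, and mouse Cdk2 on chromosome 10 at 128697939 to 128705031 on the minus strand (GRCm38).

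The upstream sequences of mouse Cdk2 and Cdk6 are shown because these 2 kinases were the ones that changed, in opposite directions. They come from RefSeq (GRCm38.p6), which had an entry for 7 of the 10 genes, and they run 5′ to 3′ on the strand of the gene up to the base before the start that RefSeq annotates. Capitals mark 3 letter patterns searched on both strands: the GC box GGGCGG, the CCAAT box, and an E2F core taken as TTCCCGC or as TTGGCGC or as TTCGCGC. The Cdk2 stretch is chr10:128705052-128705179 on the minus strand (128 bases) and the Cdk6 stretch is chr5:3343789-3343892 on the plus strand (104 bases). The RefSeq start of Cdk6 lies inside the GENCODE gene, which begins farther upstream at 3341485, so the Cdk6 stretch is not the sequence before the GENCODE start.
Cdk2: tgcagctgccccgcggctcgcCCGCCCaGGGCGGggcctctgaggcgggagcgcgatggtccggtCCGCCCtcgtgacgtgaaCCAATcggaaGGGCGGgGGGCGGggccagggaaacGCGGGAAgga
Cdk6: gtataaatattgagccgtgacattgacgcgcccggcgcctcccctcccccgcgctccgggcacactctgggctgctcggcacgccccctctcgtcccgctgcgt
The Cdk2 stretch holds 5 GC boxes, 1 CCAAT box and 1 E2F core, and the Cdk6 stretch holds none of the 3. Over the whole 250 bases before the start, Cdk2 had 5 GC boxes, 1 CCAAT box and 2 E2F cores at 63.2% GC, and Cdk6 had none of them at 66% GC. Among all 32851 RefSeq windows of that length, 32.7% held a GC box, 33.8% a CCAAT box and 6.69% an E2F core, and the median GC content was 52.4%. These matches describe letters and were not tested as binding sites.

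The E-type cyclins activate CDK2. CCNE2, which encodes cyclin E2, had 10.6 and 8.66 RPKM in RbLoTem cells, against 7.08 and 7.59 RPKM in RbHiTn cells. The groups did not overlap, but RbLoTem replicate 2 lay nearer to both RbHiTn libraries than to RbLoTem replicate 1. The log2 fold change of 0.39 (SE 0.13, adjusted p = 0.0098 by edgeR) corresponded to a 1.31-fold higher level in RbLoTem cells, from 218 and 245 reads in RbLoTem cells and 203 and 140 reads in RbHiTn cells. Mouse Ccne2 lies on chromosome 4 at 11191351 to 11204779 on the plus strand (GRCm38). This call was lost with DESeq2 (log2 fold change 0.41, adjusted p = 0.11), without RbLoTem replicate 1 (0.25, adjusted p = 0.15 by edgeR) and without RbHiTn replicate 1 (0.34, adjusted p = 0.11 by edgeR).

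CCNE1, which encodes cyclin E1, was near the lower limit of what these libraries could measure. It had 13 and 22 reads in RbLoTem cells, against 29 and 8 reads in RbHiTn cells, and the corresponding levels were 1.08 and 1.33 RPKM against 1.73 and 0.743 RPKM. The RbLoTem values lay between the RbHiTn values. The log2 fold change was -0.11 (SE 0.38, adjusted p = 0.84 by edgeR), and the ratio of summed reads scaled to depth was 0.901, with an exact 95% interval for counting error of 0.551 to 1.47. That interval leaves out the spread between libraries, so neither a difference in CCNE1 nor its absence is shown. The ratio of CCNE2 to CCNE1 RPKM was 9.79 and 6.50 in RbLoTem cells, against 4.09 and 10.2 in RbHiTn cells, and the groups overlapped.

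Of the inhibitors, CDKN1B had 3.12 and 4.70 RPKM in RbLoTem cells, against 4.48 and 6.70 RPKM in RbHiTn cells. The groups overlapped, and in each subset the library with the label suffix was the higher one. The log2 fold change was -0.42 (SE 0.21, adjusted p = 0.097 by edgeR) from 41 and 85 reads in RbLoTem cells and 82 and 79 reads in RbHiTn cells. CDKN1B thus did not pass, and its adjusted p ranged from 0.018 to 0.61 over the alternatives, so that neither a difference nor its absence is shown. The ratio of CDKN1B to CDK2 RPKM was 0.0777 and 0.122 in RbLoTem cells, against 0.0805 and 0.120 in RbHiTn cells. CDKN1A, the gene of p21, had 0 reads in all 4 libraries, where 3 reads would have been 0.154 to 0.240 RPKM, and no fold can be given.

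Ordered by mean RPKM, the genes in RbLoTem cells were CDK4 at 88.6 ± 3.69, CCND2 at 61.6 ± 5.09, CCND3 at 60.7 ± 3.83, CDK2 at 39.4 ± 1.07, CCNE2 at 9.63 ± 1.37, CDK6 at 6.56 ± 0.178, CDKN1B at 3.91 ± 1.12 and CCNE1 at 1.21 ± 0.176 (SD, n = 2). CCND2 and CCND3 overlapped in RbLoTem cells, while every other neighbouring pair was separated in both libraries. In RbHiTn cells the order was CDK4 at 90.1 ± 0.0949, CCND3 at 58.4 ± 2.07, CDK2 at 55.8 ± 0.235, CCND2 at 35.2 ± 1.09, CCNE2 at 7.34 ± 0.359, CDKN1B at 5.59 ± 1.57, CDK6 at 2.05 ± 0.356 and CCNE1 at 1.24 ± 0.700 (SD, n = 2). No neighbouring pair overlapped in RbHiTn cells, with CCND3 and CDK2 the closest pair for their level. CCND2 stood above CDK2 in RbLoTem cells and below it in RbHiTn cells, and CDK6 stood above CDKN1B in RbLoTem cells and below it in RbHiTn cells. Because the models are human and the reads murine, levels of different genes are less certain than the comparison of 1 gene between subsets.

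**Figure D3:**
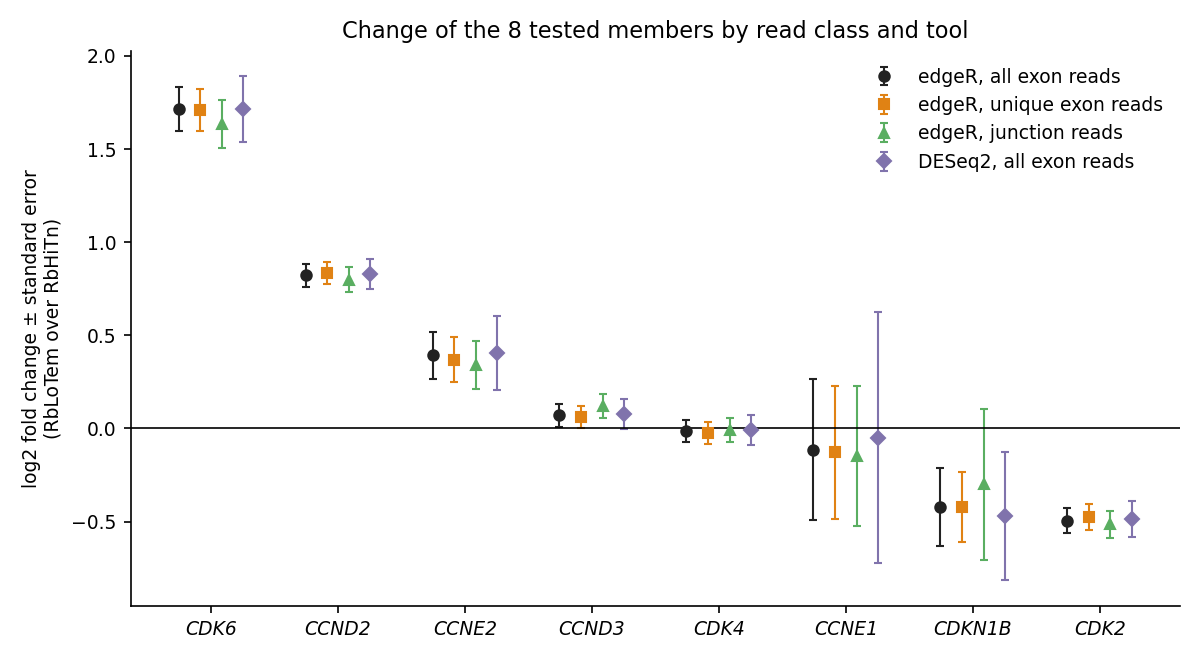
Log2 fold change (RbLoTem over RbHiTn) of the 8 tested genes with its standard error as the bar, from all exon reads, uniquely matching exon reads and reads across exon junctions by edgeR, and from all exon reads by DESeq2. All 8 genes keep their side of 0 with all 4, CDK6 (1.72), CCND2 (0.82) and CDK2 (-0.49) among them. The bars of CCNE1 and CDK4 cross 0 with all 4, that of CDKN1B on junction reads and that of CCND3 with DESeq2.

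The change was also estimated from reads that cross exon junctions, which come from spliced mRNA, an alternative chosen after seeing the data. On such reads the log2 fold changes were 1.63 for CDK6, 0.80 for CCND2, -0.52 for CDK2 and 0.34 for CCNE2, and all 4 passed by edgeR. Junction reads made up 86.9% to 88.9% of the exon reads of CDK2 and 73.2% to 77.8% of those of CDK6. They made up 16.5% to 24.4% of those of CDKN1B, which left this inhibitor with 10 to 15 junction reads per library.

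Other genes of the G1 to S pathway were described from 8 lists with 71 genes, of which 51 had a model and 46 were tested. In RbLoTem cells, 10 of the 46 were higher, 14 were lower and 22 did not pass, and their median log2 fold change was -0.02, beside -0.01 over all tested models. These shares of 21.7% higher and 30.4% lower stand beside 24.3% and 23.6% over all tested models. Of 5 other CDK inhibitors, 2 were tested. CDKN2C, which encodes the CDK4 and CDK6 inhibitor p18, had 14.4 ± 0.194 RPKM in RbLoTem cells and 21.0 ± 0.540 RPKM in RbHiTn cells (SD, n = 2) and was lower (log2 fold change -0.53, SE 0.10, adjusted p = 3.8e-05 by edgeR). CDKN2D, an inhibitor of the same family, had 10 to 15 reads per library and did not pass (adjusted p = 0.45 by edgeR).

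Of 3 pocket proteins, the substrates of CDK4 and CDK6, only RBL2 was tested. RBL2, which encodes p130, the pocket protein of quiescent cells, had 7.86 ± 0.457 RPKM in RbLoTem cells and 3.14 ± 0.142 RPKM in RbHiTn cells (SD, n = 2). It was higher in RbLoTem cells with a log2 fold change of 1.32 (SE 0.12, adjusted p = 7.6e-11 by edgeR). Among the E2F and DP factors, 2 of 7 tested were higher, 1 was lower and 4 did not pass. E2F5, a partner of p130 and a repressor, was higher with a log2 fold change of 1.02, at 5.45 RPKM in RbLoTem cells and 2.71 RPKM in RbHiTn cells (adjusted p = 8.9e-07 by edgeR). E2F3 was higher by 0.55, while E2F2, an activator as E2F3 mostly is, was lower (log2 fold change -0.99), at 2.81 RPKM in RbLoTem cells and 5.60 RPKM in RbHiTn cells, with an adjusted p of 1.6e-06 by edgeR.

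Of the 5 genes of CDK activation, 2 were higher and 1 was lower. CDC25A, a phosphatase that removes inhibitory phosphates from CDK2, was higher in RbLoTem cells (17.7 RPKM in RbLoTem cells and 10.9 RPKM in RbHiTn cells, log2 fold change 0.68, adjusted p = 1.4e-06 by edgeR). CDC37, a chaperone partner that helps CDK4 and CDK6 fold, was higher by 0.34, and CCNH, the cyclin of the CDK-activating kinase, was lower (log2 fold change -0.56). Among 5 tested genes of cyclin and p27 turnover, FBXW7, which directs cyclin E to degradation, was higher (0.63, adjusted p = 8.8e-07 by edgeR) and SKP1, a shared subunit of SCF ubiquitin ligases, was lower (-0.24, adjusted p = 0.0013 by edgeR), a call lost without RbLoTem replicate 2. SKP2, the receptor that marks p27 for degradation, did not pass (log2 fold change 0.24, SE 0.36, adjusted p = 0.62 by edgeR). It had 9 to 24 reads per library, so neither a difference nor its absence is shown.

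Of the 4 tested regulators of these genes' transcription, SMAD3, which carries TGF-β signals, was higher (0.77, adjusted p = 7.6e-07 by edgeR). FOXO3 was lower (-0.46, adjusted p = 0.0011 by edgeR), but a mere 31.9% of its reads matched 1 place uniquely and the call was lost on junction reads. MYC, a driver of cell growth after T cell activation, did not pass (log2 fold change -0.03, adjusted p = 0.79 by edgeR). It had 48.4 and 48.8 RPKM in RbLoTem cells, against 52.3 and 46.9 RPKM in RbHiTn cells.

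Genes that work after the G1 to S transition were called in both directions. Of 13 tested S phase genes that E2F factors are known to control, 5 were lower in RbLoTem cells (SLBP, MCM2, MCM6, MCM7 and CCNA2), 1 was higher (RRM2) and 7 did not pass, with a median log2 fold change of -0.06. Over all tested models 23.6% were lower and 24.3% higher, beside 38.5% lower and 7.69% higher of these 13. SLBP, which binds histone mRNA, fell most of the 5 (-0.75, adjusted p = 7.5e-07 by edgeR), and CCNA2, the S phase cyclin that binds CDK2, had 84.3 and 84.6 RPKM in RbLoTem cells, against 103.7 and 103.8 RPKM in RbHiTn cells (-0.29). RRM2, a subunit of the enzyme that makes deoxynucleotides, was higher at 154.1 RPKM in RbLoTem cells and 115.2 RPKM in RbHiTn cells (0.43, adjusted p = 3.2e-08 by edgeR).

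Of 9 tested genes of G2 phase and mitosis, 4 were lower (TOP2A, CCNB2, CCNF and BUB1), 2 were higher (CCNB1 and CDC20) and 3 did not pass, with a median log2 fold change of -0.40. Of these 9, 44.4% were lower and 22.2% higher, beside 23.6% and 24.3% over all tested models. TOP2A, the topoisomerase of dividing cells, had 220.3 RPKM in RbLoTem cells and 307.6 RPKM in RbHiTn cells (-0.47, adjusted p = 1.2e-09 by edgeR). The mitotic cyclins differed in direction, with CCNB2 lower (-0.43, adjusted p = 1.1e-05 by edgeR) and CCNB1 higher (0.29) in RbLoTem cells. The CCNF call (-0.40, adjusted p = 0.012 by edgeR) was lost under 6 alternatives, with DESeq2 and limma among them and without RbLoTem replicate 2 or RbHiTn replicate 1, and the BUB1 call (-0.55) was lost without RbLoTem replicate 2 and without RbHiTn replicate 2.

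**Figure D4:**
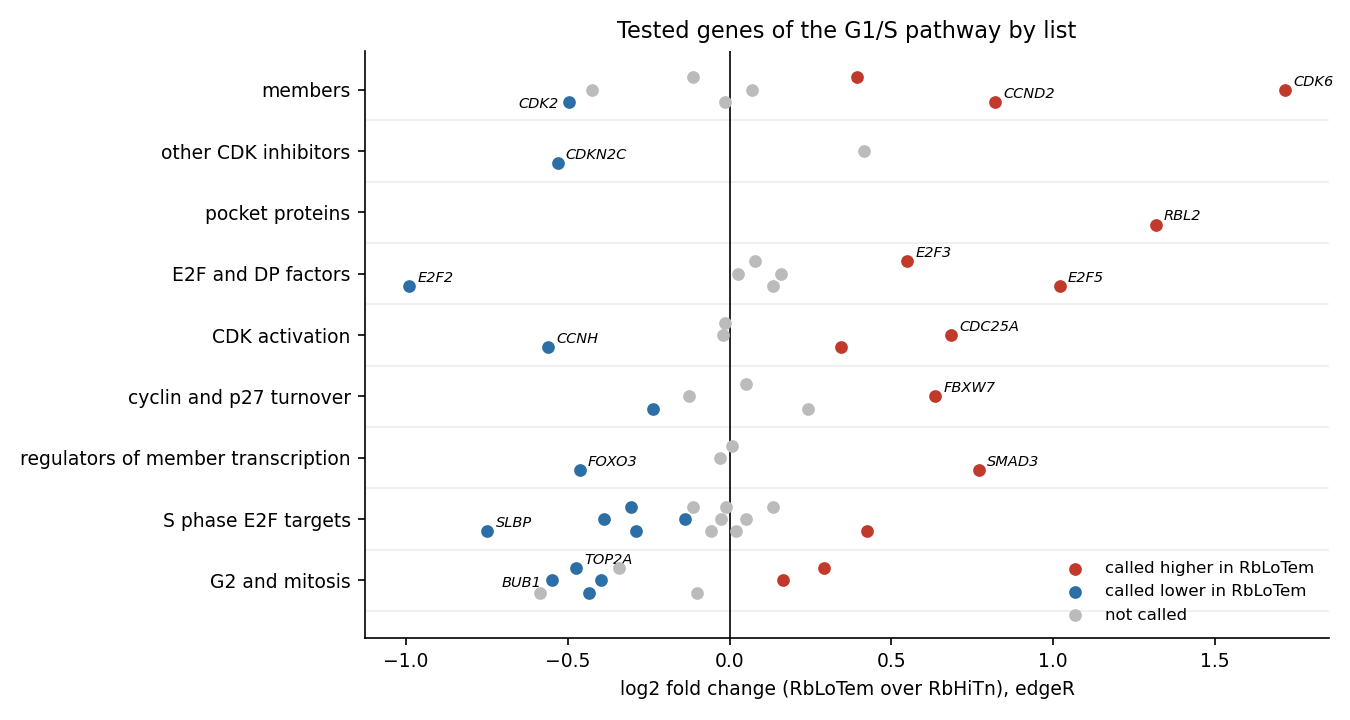
Log2 fold change (RbLoTem over RbHiTn, edgeR) of each tested gene of the 10 G1 genes (members) and of the 8 pathway lists, with 1 point per gene in red where it was higher in RbLoTem cells, blue where it was lower and grey where it did not pass. CDK6 (1.72) and RBL2 (1.32) lie farthest to the right and E2F2 (-0.99) farthest to the left.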

How the data were processed

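RNA sequencing gave 1 table per library, each with 38588 gene models. The deposited read counts per model (exon, gene, exon junction and unique reads) were made by the authors, as were the deposited RPKM values, which equalled exon reads per kb and per 1000000 reads in genes. The deposited coverage signal was not used in any test. The methods of the study name Trimmomatic, TopHat, mm10, HTSeq and DESeq2, but the tables list human models, and for these the aligner, the annotation and any use of strand are not stated, so reads of an antisense gene cannot be told apart.

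The test on exon reads used edgeR 4.0.16 under R 4.3.3 (TMM factors 0.991 to 1.01, filterByExpr, quasi-likelihood test, Benjamini-Hochberg adjustment). Standard errors were taken as the absolute log2 fold change over the square root of the F statistic. The common biological coefficient of variation was 0.0432. Libraries of 1 subset differed by more than sampling noise (chi-square per degree of freedom 2.07 in RbLoTem and 2.06 in RbHiTn), so none was taken for a duplicate deposit of 1 library, which does not tell separate cultures from repeat preparations of 1 RNA. Alternatives were unique or junction reads, no filter, 3 other scalings, DESeq2 1.42.0, limma 3.58.1 with a pseudocount of 0.1 or of 1 added to RPKM before taking log2, a replicate block by suffix, and leaving out each library in turn. Intervals and floors (3 reads) cover counting error only.

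The 10 genes and all lists were chosen with earlier results of these data known. Named pathway genes were the called genes with the largest absolute log2 fold change, up to 4 from each list. CCNA2, MCM6, CCNB1, CDC20, MYC, SKP2 and CDKN2D were added after their values were seen, to complete the account of a list. Some listed genes are not reported here.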

Additional observations from a re-analysis of the deposited data

How the results depend on the processing

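Across 15 alternatives, 106 of the 120 combinations of a gene of the 8 and an alternative kept direction and side of the threshold, 4 lost a call, 4 gained one and 6 changed sign. CDK6, CCND2 and CDK2 kept their calls under all 15, with log2 fold changes without 1 library of 1.53 to 1.86, 0.73 to 0.90 and -0.52 to -0.47. The CCNE2 call was lost with DESeq2 with its independent filtering on or off (0.41, adjusted p = 0.11) and without RbLoTem replicate 1 or RbHiTn replicate 1, where edgeR gave 0.25 to 0.55 over the 4 fits without 1 library. CDKN1B became lower on unique reads (-0.42, adjusted p = 0.048 by edgeR), so that the number of lower genes of the 10 was 2 in place of 1. All reads of CDKN1B matched a single place, so its own counts were the same with unique reads. The call was also gained without RbLoTem replicate 2 (-0.79) or RbHiTn replicate 1 (-0.73), with -0.79 to -0.17 over the 4 fits without 1 library. Without 1 library, 2 to 3 of the 10 were higher and 1 to 2 lower. CCNE1 changed sign with limma on log2(RPKM + 0.1) (0.066) and log2(RPKM + 1) (0.014) and lay at -0.51 to 0.73 without 1 library. CDK4 changed sign with no filter (0.0012) and lay at -0.060 to 0.024 without 1 library. Neither was called under any of these. Over all models DESeq2 gave 1116 higher and 991 lower, against 1592 higher and 1545 lower by edgeR. For the 8 genes its values were the same with independent filtering on or off. The 15 alternatives and 120 combinations thus hold these values 2 times. In the fits without 1 library, the lone library of a subset was assumed to vary like the others. In the pathway lists, 9 to 10 were higher and 10 to 13 lower without 1 library. The cause of these changes was not tested. Same-suffix libraries did not deviate together (correlation -0.01), so the suffix was not taken to pair samples. A replicate block on it gave 1562 higher and 1530 lower models, and CDKN1B was then lower (-0.50, adjusted p = 0.027 by edgeR), so that 2 of the 10 were lower. The low counts of CCNE1 and CDKN1B limit what can be said of them.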

Other observations

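CCNE2 had the most reads inside its model but outside its exons among the 10 genes. Such reads numbered 20 and 26 in RbLoTem cells and 41 and 22 in RbHiTn cells, and 0 to 2 of them per library matched a single place. The other genes had 0 to 7 such reads per library.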
